A study of Mus musculus with 6 samples.

Results

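The genes described here are 9 components of β- and α1-adrenergic signaling and of the cAMP cascade in the heart, namely Adrb1, Adra1a, Adra1b, Adcy5, Adcy6, Grk5, Prkaca, Prkar1a and Pde4d. They were chosen by name, with earlier results of these data known, as the rows whose Ensembl identifier carries these symbols in the GENCODE mouse annotation. They are 9 of the 54532 genes in the expression table, and all 9 passed the filter on low values that left 14227 genes for testing. Left ventricular myocardium was sequenced from 3 control (Chow) and 3 HFpEF mice, with 1 library per mouse. All were male C57BL/6 mice, 6 to 8 weeks old at the start. The HFpEF mice received a high-fat diet with 60% of kcal from fat and drank water that held 0.5 g/L of L-NAME, which blocks nitric oxide synthases, and the Chow mice received chow and plain water. Both regimens lasted 12 weeks. Diet and L-NAME were given together, so their effects cannot be told apart. Expression is given as FPKM, fragments per kilobase of exon relative to library size, as the authors deposited it.

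Noradrenaline and adrenaline act on the heart through β-adrenergic receptors, which couple through the stimulatory G protein to adenylyl cyclase, and through α1-adrenergic receptors, which couple through Gq to phospholipase C. Adenylyl cyclase makes cAMP, cAMP releases the catalytic subunit of protein kinase A (PKA) from its regulatory subunits, and PKA phosphorylates calcium-handling and sarcomere proteins, which raises the force and speed of contraction and relaxation. Receptor kinases desensitize the receptors and phosphodiesterases degrade cAMP, and a reduced response of the myocardium to catecholamines is a known feature of heart failure.

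Reads recovered from the FPKM values totaled 13067023 to 15563106 per Chow library and 13449469 to 16012784 per HFpEF library. All 15 ventricular cardiomyocyte markers examined were detected and tested, and their summed FPKM was 23993 to 25868 in Chow and 11276 to 17960 in HFpEF. HFpEF replicate 3 stood apart from the other 5 libraries. On the first principal component, which held 42.3% of the variance, it lay at 75.5, against 11.6 and 12.7 for the other HFpEF libraries and −35.8 to −31.7 for Chow. Mitochondrially encoded genes took 7.18% of its recovered reads, against 20.1% to 26.0% in the other libraries. Some comparisons, chosen after their values were seen, are also given without this library. Atrial cardiomyocyte markers summed to 14.2, 16.8 and 548 FPKM in Chow and 2596, 3909 and 61.2 FPKM in HFpEF. Fits without HFpEF replicate 3 therefore keep the HFpEF libraries highest in atrial markers, whose part in the values was not tested.

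In HFpEF myocardium the α1A receptor gene Adra1a was 44.0% below Chow, and Adrb1 (β1 receptor), Adra1b (α1B receptor) and Prkaca (PKA catalytic subunit) were 21.8% to 25.5% below Chow, with no overlap between the libraries of the 2 groups. No member was higher without overlap. Adcy5, Adcy6, Grk5, Prkar1a and Pde4d overlapped between the groups. Without overlap, 4 of 9 members were lower, a pattern that 19.8% of all tested genes shared, and 0 of 9 were higher, against 15.5% of all tested genes. By limma on log2(FPKM + 0.1) over all 14227 genes, 2 of 9 members, Adra1a and Prkaca, were lower at an unadjusted p under 0.05, against 13.1% of all tested genes, and 0 were higher, against 10.2%. After Benjamini-Hochberg adjustment in limma 0 of 9 members passed 0.05, and 0.0984% of all tested genes, 14 in number, did. With a further condition of at least 2 for the size of the log2 fold change, 0.0562% of all tested genes and 0 of 9 members remained. Without HFpEF replicate 3, 3 of 9 members (Adra1a, Adra1b and Prkaca) were lower at an unadjusted p under 0.05 in limma, against 15.0% of all tested genes, and 0 were higher, against 10.2%. With 3 mice against 3, the exact two-sided permutation test of a single gene cannot give a p below 0.1.

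**Figure D1:**
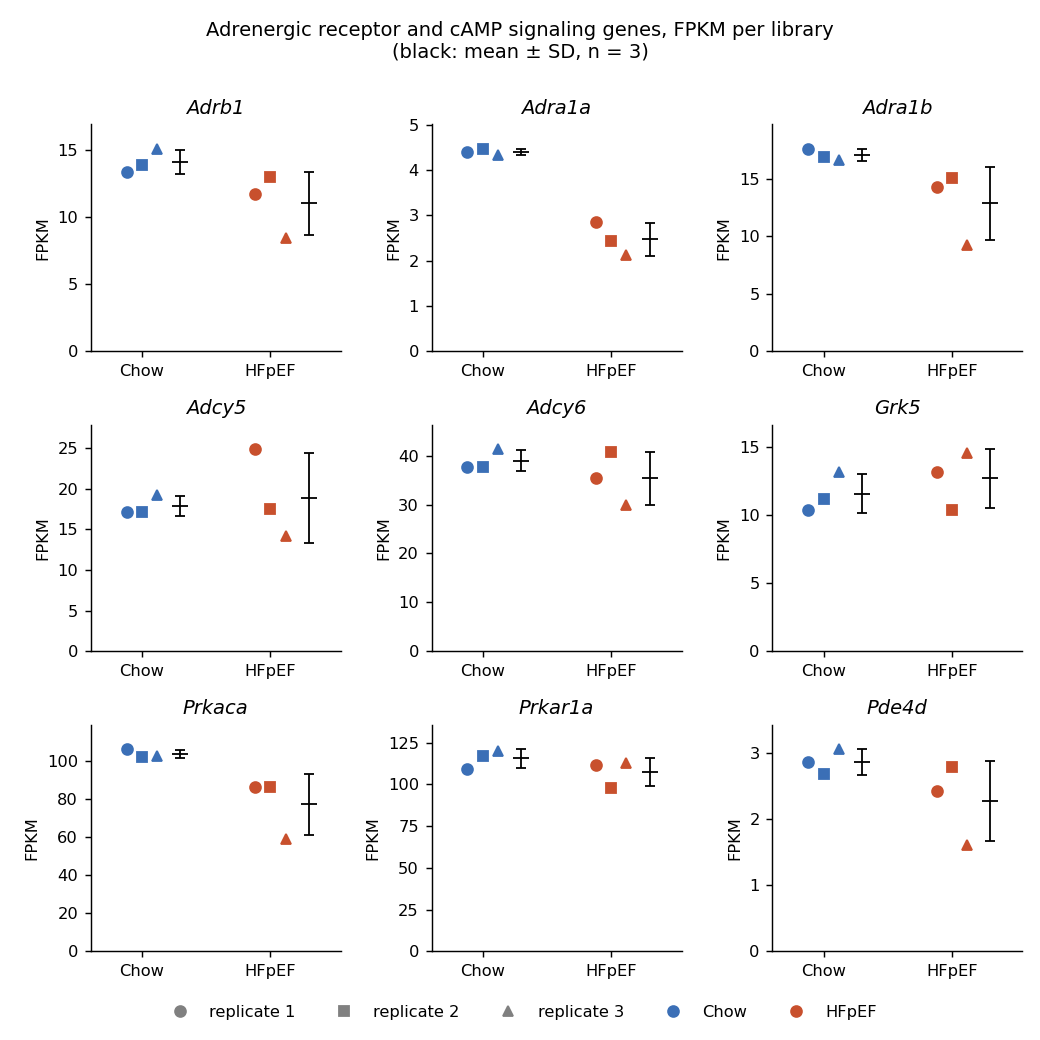
FPKM (vertical axes, each starting at 0) of the 9 genes in the 3 Chow (blue) and 3 HFpEF (orange) libraries, with the marker shape giving the replicate and black bars the mean ± SD (n = 3). The HFpEF libraries of Adrb1, Adra1a, Adra1b and Prkaca all sit below the Chow libraries, and HFpEF replicate 3 is the lowest HFpEF library for 7 of the 9 genes.

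In Chow hearts the members spanned from 116 FPKM for Prkar1a to 2.87 FPKM for Pde4d, which is a comparison per kilobase of exon. The order of the Chow means was Prkar1a, Prkaca (104), Adcy6 (38.9), Adcy5 (17.8), Adra1b (17.0), Adrb1 (14.1), Grk5 (11.6), Adra1a (4.40) and Pde4d. Of these neighbors, only Adcy5 and Adra1b overlapped between Chow libraries. The 2 PKA subunit genes were therefore the most abundant, and Adra1b exceeded Adra1a in every library. Recovered reads per member and library ran from 344 for Adra1a to 9434 for Prkar1a, so that counting error was at most 5.39% of a value. The coefficient of variation over the 3 mice was 1.47% to 12.3% in Chow and 7.96% to 29.2% in HFpEF. 

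Adrb1 encodes the β1-adrenergic receptor, the main β receptor of cardiomyocytes, and lies at chr19:56722199-56733113 on the plus strand (GRCm38). Its FPKM was 13.4, 13.8 and 15.1 in Chow and 11.7, 12.9 and 8.42 in HFpEF. All HFpEF values were below all Chow values, but replicate 2 of HFpEF only narrowly. The log2 fold change was −0.37 ± 0.17 (SE, n = 3 per group), with a limma adjusted p of 0.244. Without HFpEF replicate 3 the log2 fold change was −0.19, with a limma adjusted p of 0.241.

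Adra1a encodes the α1A-adrenergic receptor and lies at chr14:66635251-66771168 on the plus strand. Its FPKM was 4.40, 4.47 and 4.34 in Chow and 2.84, 2.43 and 2.12 in HFpEF. The Chow libraries differed by less than the counting error of this gene, and every HFpEF library was well below them. The log2 fold change was −0.82 ± 0.14 (SE, n = 3 per group), with an unadjusted p of 0.00069 and an adjusted p of 0.0847 in limma. Only 3.28% of the tested genes had a lower log2 fold change, and 0.787% had a smaller p. Without HFpEF replicate 3 the log2 fold change was −0.72 and the limma adjusted p was 0.0221, where 8.35% of all tested genes passed 0.05. The HFpEF libraries left in that fit are those highest in atrial markers.

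Adra1b encodes the α1B-adrenergic receptor and lies at chr11:43774606-43901210 on the minus strand. Its FPKM was 17.6, 16.9 and 16.6 in Chow and 14.3, 15.1 and 9.23 in HFpEF. The groups did not overlap, and replicate 3 was the farthest from Chow. The log2 fold change was −0.43 ± 0.19 (SE, n = 3 per group), with a limma adjusted p of 0.235. Without HFpEF replicate 3 it was −0.21, with an unadjusted p of 0.0228 and an adjusted p of 0.129 in limma.

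Adcy5 and Adcy6 encode the main adenylyl cyclases of cardiomyocytes, and lie at chr16:35154877-35305738 on the plus strand and at chr15:98589973-98610076 on the minus strand. Adcy5 had 17.2, 17.2 and 19.2 FPKM in Chow and 24.9, 17.5 and 14.1 FPKM in HFpEF. Its HFpEF libraries reached both above and below all Chow libraries, and its log2 fold change was 0.04 (95% interval −0.46 to 0.54). Without HFpEF replicate 1 that value turned to −0.18. Adcy6 had 37.8, 37.6 and 41.4 FPKM in Chow and 35.4, 40.8 and 30.0 FPKM in HFpEF. The groups overlapped, with a log2 fold change of −0.15 (95% interval −0.48 to 0.18). Leaving out HFpEF replicate 3 gave log2 fold changes of −0.035 for Adcy6 and 0.23 for Adcy5. Of the exon bases of Adcy6, 8.92% are shared with the opposite-strand gene Gm29331, and whether counting used strand is not given in the sources used here.

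Grk5 encodes a G protein-coupled receptor kinase that desensitizes adrenergic receptors and also acts in the nucleus, and lies at chr19:60889749-61095968 on the plus strand. Its FPKM was 10.4, 11.2 and 13.2 in Chow and 13.2, 10.4 and 14.6 in HFpEF. The groups overlapped, with a log2 fold change of 0.13 (95% interval −0.26 to 0.51), or 0.020 without HFpEF replicate 3. It was with Adcy5 one of the members whose log2 fold change lay above 0, while 7 of 9 members lay below 0, against 51.2% of all tested genes.

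Prkaca encodes the α catalytic subunit of PKA, the main catalytic subunit of the heart, and lies at chr8:83972993-83996443 on the plus strand. Its FPKM was 106, 102 and 103 in Chow and 86.5, 86.4 and 58.8 in HFpEF. HFpEF replicates 1 and 2 were nearly equal and below Chow, and replicate 3 was far lower. The log2 fold change was −0.45 ± 0.18 (SE, n = 3 per group), with an unadjusted p of 0.0413 and an adjusted p of 0.201 in limma. Without HFpEF replicate 3 it was −0.26 ± 0.055 (SE), with a limma adjusted p of 0.0431.

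Prkar1a encodes the RIα regulatory subunit, which holds the catalytic subunit inactive until cAMP binds, and lies at chr11:109649405-109669656 on the plus strand. Its FPKM was 109, 117 and 120 in Chow and 112, 97.5 and 113 in HFpEF. The groups overlapped, with a log2 fold change of −0.11 (95% interval −0.40 to 0.18). It was the member with the smallest spread in HFpEF, at 7.96%, and replicate 3 was its highest HFpEF library.

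Pde4d encodes a cAMP-specific phosphodiesterase that binds near β-adrenergic receptors and the ryanodine receptor, and lies at chr13:108449948-109953461 on the plus strand. Its FPKM was 2.87, 2.68 and 3.06 in Chow and 2.43, 2.80 and 1.60 in HFpEF. HFpEF replicate 2 fell within the Chow range and replicate 3 was the lowest library, with a log2 fold change of −0.36 (95% interval −0.87 to 0.16). Without replicate 3 it was −0.13.

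HFpEF replicate 3 held the lowest HFpEF value of 7 of the 9 members and the highest of 2, Grk5 and Prkar1a. The median log2 ratio of the 9 genes to their Chow means was −0.74 in this library, −0.23 in HFpEF replicate 1 and −0.15 in HFpEF replicate 2. The 15 ventricular cardiomyocyte markers moved in the same order, with median log2 ratios of −1.08, −0.54 and −0.39. All 15 had a log2 fold change below 0 (median −0.71), and 9 were lower at an unadjusted p under 0.05. Of 10 endothelial markers, 9 were also below 0 (median −0.21), and 3 were lower at an unadjusted p under 0.05. Their median log2 ratios were −0.26, −0.36 and −0.20 in HFpEF replicates 1, 2 and 3. Fibroblast markers had the opposite sign, with all 10 above 0 (median 1.38) and 6 of 10 higher at an unadjusted p under 0.05, and summed FPKM was 729 to 917 in Chow and 1344 to 5910 in HFpEF, the highest in replicate 3. All 10 macrophage markers were above 0 (median 0.75), and 4 were higher. In bulk tissue, fewer cells of a type and less RNA per cell cannot be told apart.

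**Figure D2:**
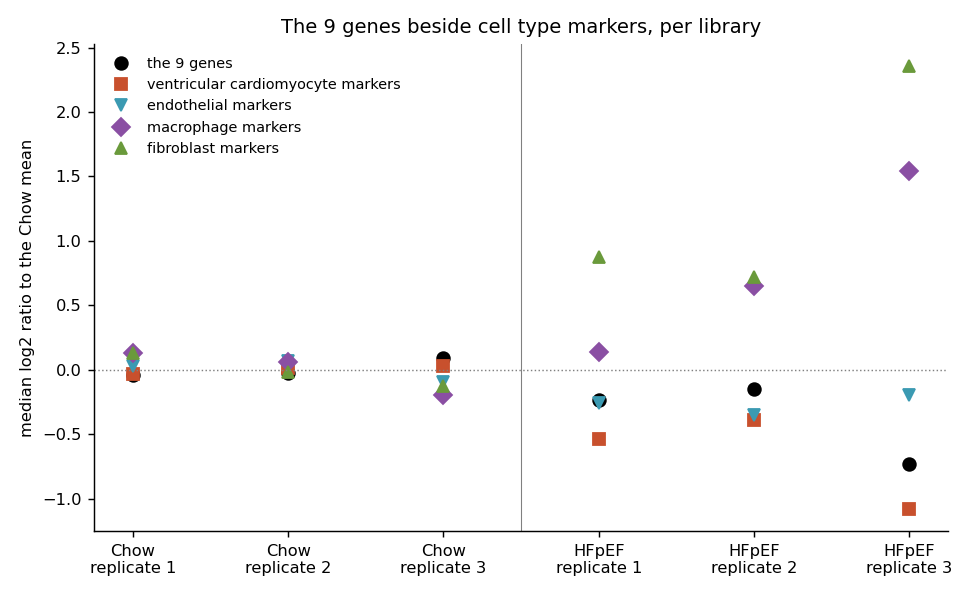
Median log2 ratio to the Chow mean (vertical axis) of the 9 genes and of 4 marker lists in each library (horizontal axis). In HFpEF replicate 3 the 9 genes lie at −0.74 and the ventricular cardiomyocyte markers at −1.08, while fibroblast markers lie at 2.36.

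Over the 6 libraries, Prkaca followed the median level of the cardiomyocyte markers most closely, with Pearson's r of 0.98, and Adrb1 and Adra1b (0.97 each), Pde4d (0.93), Adra1a (0.92) and Adcy6 (0.83) came next. Adcy5 (0.31), Prkar1a (0.23) and Grk5 (−0.60) had the lowest values. These values describe 6 libraries that share the difference between the groups. When each library was instead scaled to those 15 markers (factors of 1.24 to 1.31 in Chow and 0.891, 0.958 and 0.589 in HFpEF), the median log2 fold change of all tested genes moved from −0.01 to 0.65. On that scale Adra1a was the only member with a log2 fold change below 0, at −0.16 (95% interval −0.65 to 0.33), and its HFpEF values of 3.19, 2.54 and 3.60 overlapped its Chow values of 3.54, 3.48 and 3.32. Adrb1 (0.31), Adra1b (0.25), Prkaca (0.24) and Pde4d (0.30) turned to above 0 without passing an unadjusted p of 0.05 in limma. Adcy5 (0.72), Adcy6 (0.53), Grk5 (0.80) and Prkar1a (0.58) were higher at an unadjusted p under 0.05, against 51.4% of all tested genes. On that scale 0 members were lower at an unadjusted p under 0.05, against 0.274% of all tested genes, and 0 passed an adjusted p of 0.05 in limma, against 0.879%. Relative to the median of all tested genes, 7 of 9 members were lower, with Adra1a at −0.81. These relative values are nearly the same on both scales by construction, because the scaling shifts all genes of a library alike. Whether cell composition has a part in the lower values was not tested.

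**Figure D3:**
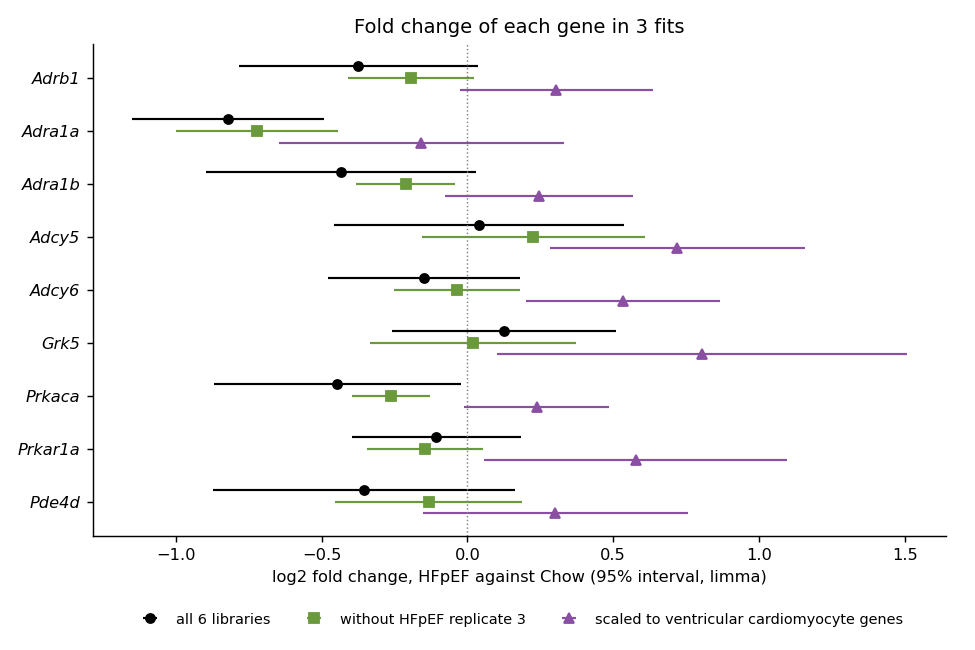
Log2 fold change (horizontal axis, HFpEF against Chow, with 95% intervals from limma) of each gene with all 6 libraries, without HFpEF replicate 3, and with libraries scaled to the 15 ventricular cardiomyocyte markers. The interval of Adra1a excludes 0 in the first and second fits and includes it in the third, where the 8 other genes lie above 0.

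Ratios between genes of related function do not depend on how a library is scaled. The 8 ratios examined were chosen after the values of the genes were seen and are given as a description. Adra1a relative to Adra1b was 0.250, 0.265 and 0.261 in Chow and 0.199, 0.161 and 0.229 in HFpEF. Adra1a relative to Adrb1 was 0.329, 0.323 and 0.288 in Chow and 0.243, 0.188 and 0.252 in HFpEF. Adra1a was thus lower relative to both other main receptors in every HFpEF library. Prkaca relative to Prkacb, the gene of the β catalytic subunit, was 11.2, 10.4 and 10.3 in Chow and 8.08, 8.20 and 4.70 in HFpEF. The ratio of the genes of the 2 type II regulatory subunits, Prkar2b to Prkar2a, was 0.0311, 0.0346 and 0.0308 in Chow and 0.188, 0.165 and 0.213 in HFpEF. The other 4 ratios (Adcy5 to Adcy6, Prkaca to Prkar1a, Grk5 to Grk2 and Pde4d to Pde3a) overlapped between the groups. Among them, Adcy5 to Adcy6 was 0.454 to 0.464 in Chow, and it was 0.429, 0.471 and, in HFpEF replicate 1, 0.704.

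**Figure D4:**
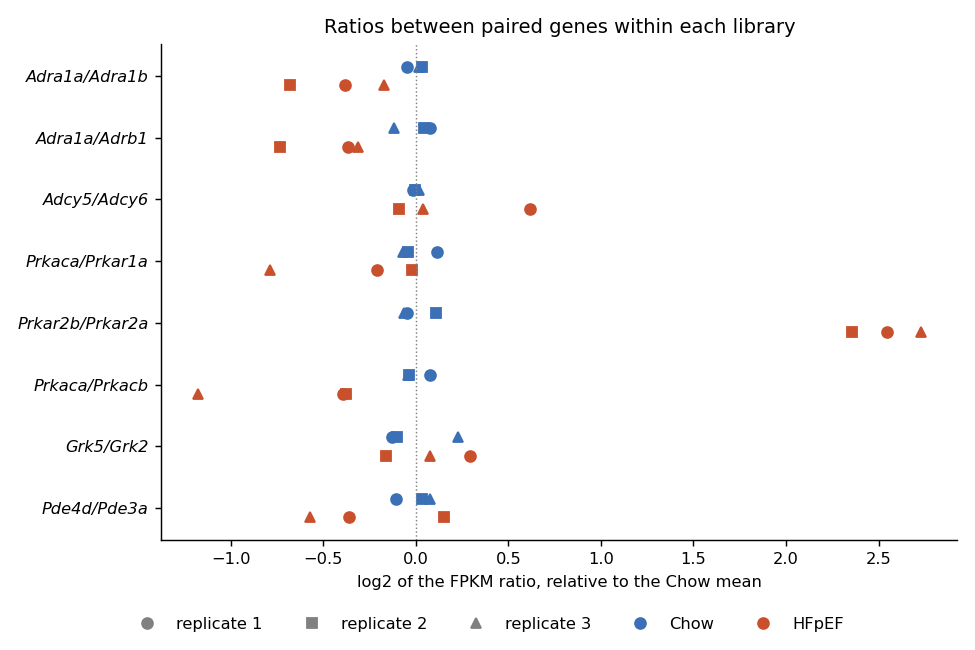
Log2 of 8 FPKM ratios within each library, relative to the Chow mean of that ratio (horizontal axis), with Chow in blue, HFpEF in orange and marker shape giving the replicate. The HFpEF libraries lie apart from Chow for 4 ratios, below it for Adra1a/Adra1b, Adra1a/Adrb1 and Prkaca/Prkacb and above it for Prkar2b/Prkar2a.

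The promoters of 3 of the members whose groups did not overlap are shown, and these genes had log2 fold changes of similar size. No RefSeq promoter was available here for Adra1a, whose groups also did not overlap, or for Adcy6. Each is the 250 bases before the RefSeq start site, 5′ to 3′ on the gene's strand (GRCm38.p6), and capitals mark the cAMP response element half-site, TGACG on either strand (CGTCA on the other). Adrb1 is read from chr19:56721867-56722116 (plus), Prkaca from chr8:83972728-83972977 (plus) and Adra1b from chr11:43901238-43901487 (minus).
Adrb1: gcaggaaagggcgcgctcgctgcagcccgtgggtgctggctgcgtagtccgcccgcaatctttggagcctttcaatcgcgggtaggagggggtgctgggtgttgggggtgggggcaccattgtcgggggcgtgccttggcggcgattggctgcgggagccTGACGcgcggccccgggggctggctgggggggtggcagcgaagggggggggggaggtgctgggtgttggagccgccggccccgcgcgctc
Prkaca: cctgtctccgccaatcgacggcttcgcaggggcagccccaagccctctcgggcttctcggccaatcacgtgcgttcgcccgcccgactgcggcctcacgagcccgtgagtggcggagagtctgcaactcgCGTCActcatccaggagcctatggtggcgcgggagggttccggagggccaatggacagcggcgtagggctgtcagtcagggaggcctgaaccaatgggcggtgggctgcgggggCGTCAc
Adra1b: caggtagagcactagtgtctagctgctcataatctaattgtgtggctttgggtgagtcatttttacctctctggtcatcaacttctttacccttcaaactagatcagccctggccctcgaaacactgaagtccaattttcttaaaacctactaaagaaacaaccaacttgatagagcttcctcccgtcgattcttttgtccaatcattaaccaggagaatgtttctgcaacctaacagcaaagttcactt
The Adrb1 promoter held 1 half-site, the Prkaca promoter held 2 and the Adra1b promoter held none. RefSeq promoter windows, of 300 bases reaching 50 bases past the start, were found for 7 of the 9 members, in 14 windows. A half-site was present in 5 windows of 3 members, Adrb1, Prkaca and Prkar1a, and the full palindrome TGACGTCA in windows of Prkar1a only. The 2 windows with the palindrome overlap and hold the same sites, so the count of windows includes that stretch more than once. Of 32851 mouse promoter windows of this length, 20.8% held a half-site and 1.79% the full palindrome, which contains half-sites on both strands. These are matches of letters, and binding at them was not measured.

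The genes of the wider pathway were taken from a list of 130 genes by role, of which 114 were tested. Of these, 13 were higher and 17 lower at an unadjusted p under 0.05 (background 10.2% and 13.1% of all tested genes), 1 passed an adjusted p of 0.05 in limma, and the median log2 fold change was −0.06. With libraries scaled to the ventricular cardiomyocyte markers, 56 were higher and 0 lower at an unadjusted p under 0.05 in limma. On that scale 51.4% of all tested genes were higher and 0.274% lower. With HFpEF replicate 3 left out, 14 were higher and 22 lower at an unadjusted p under 0.05 (background 10.2% and 15.0% of all tested genes). In that fit 21 pathway genes passed an adjusted p of 0.05 in limma, against 8.35% of all tested genes. Of the 15 lower genes that are not among the 9, most belonged to 2 classes. Among the 8 tested cAMP effectors other than PKA (median −0.46), 4 were lower, for example the pacemaker channel gene Hcn2 (−0.95 on the log2 scale) and the cAMP-binding membrane protein gene Popdc2 (−0.53), and 0 were higher. Among the 14 cardiomyocyte PKA substrates (median −0.59), 5 were lower, including troponin I (Tnni3, −0.71), cardiac myosin-binding protein C (Mybpc3, −0.75) and the small heat shock protein Hspb6 (−0.82), and 0 were higher. Of the 14 substrates 4, Tnni3, Mybpc3, Ryr2 and Pln, are also among the 15 cardiomyocyte markers. The median was −0.71 for these 4 and −0.52 for the other 10. The log2 fold changes were closer to 0 without HFpEF replicate 3, at −0.59 for Hcn2, −0.30 for Popdc2, −0.50 for Tnni3, −0.65 for Mybpc3 and −0.45 for Hspb6, and each of these 5 genes had a limma adjusted p under 0.05 (0.0135 to 0.0286). Another substrate-list gene, sarcolipin (Sln), an atrial regulator of the calcium pump, was at 0, 0 and 54.5 FPKM in Chow and at 219, 431 and 1.37 FPKM in HFpEF, which overlapped. The summed FPKM of the other atrial markers was 14.2, 16.8 and 494 in Chow and 2377, 3478 and 59.9 in HFpEF, so the same 3 libraries were high for both.

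Among 5 tested adrenergic receptors, Adra1a was lower and Adrb3 higher at an unadjusted p under 0.05. Adrb3, the β3 receptor best known from adipocytes, had 0, 1 and 1 recovered reads in Chow and 59, 38 and 35 in HFpEF. Its FPKM was at most 0.025 in Chow and 0.537 to 1.26 in HFpEF. Adrb3 thus passed the filter of 0.5 FPKM in 3 libraries only through the HFpEF libraries, so it was tested because it was high there. Among 16 G protein subunits (median 0.21), 4 were higher, namely the inhibitory α subunits Gnai1 (1.29) and Gnai3 (0.71), Gnao1 (1.09) and the γ subunit Gng2 (1.66, the largest of the class), and Gng5 (−0.52) was lower. Gnao1 was at 2.05, 2.12 and 2.51 FPKM in Chow and at 6.91, 6.30 and 2.57 FPKM in HFpEF. HFpEF replicate 3 was thus near the Chow level, and the other HFpEF libraries, which were high, are also those with the highest atrial markers, whose part in this value was not tested. Gnai3 was at 0.46 without HFpEF replicate 3. The 2 most abundant, Gnai2 (−0.02) and Gnb2 (0.02), overlapped between the groups. Of 7 adenylyl cyclases, Adcy7 (1.07) was higher and Adcy9 (−0.46) lower, and of 13 receptor kinases, arrestins and RGS proteins, the β-arrestin genes Arrb1 (0.49) and Arrb2 (0.85) were higher and 0 were lower. In the same class Grk2, the other main receptor kinase of the heart, had a log2 fold change of 0.06, and Rgs5 (−0.29) and Rgs2 (−0.48) did not pass the test. Of these calls, only Adcy9 did not pass without HFpEF replicate 3 (−0.41, unadjusted p 0.0620 in limma). Adcy7 (0.63, unadjusted p 0.00492) and Arrb2 (0.48, unadjusted p 0.0489) still passed in limma, with smaller log2 fold changes than with all libraries. Adcy7 had 13.0 FPKM in that library, against 5.48 and 4.71 FPKM in the other HFpEF libraries, and macrophage markers were highest in it too, a relation that was not tested. Rgs5, which also marks pericytes, was lower without that library (−0.42, limma adjusted p 0.0361). Adcy1 (1.72, limma adjusted p 0.0175) and Grk3 (0.93, limma adjusted p 0.0172) were higher without it, where 8.35% of all tested genes passed 0.05. With all libraries Adcy1 (0.60) and Grk3 (0.57) did not pass an unadjusted p of 0.05 in limma. The part of the atrial markers, high in the HFpEF libraries left in that fit, was not tested.

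With all 6 libraries, the single pathway gene with a limma adjusted p under 0.05 was Prkar2b, which encodes the RIIβ regulatory subunit of PKA, an isoform known from adipose tissue and neurons. Its FPKM was 0.692, 0.748 and 0.679 in Chow and 3.61, 2.59 and 2.68 in HFpEF, with no overlap. The log2 fold change was 1.91 ± 0.19 (SE, n = 3 per group) and the limma adjusted p was 0.0334, which ranged from 0.0132 to 0.196 over 16 alternatives and was under 0.05 in 7. Among the other PKA genes, Prkar2a (−0.49) and the inhibitor Pkig (−0.35) were lower together with Prkaca, and the inhibitor Pkia (−0.55) did not pass the test. Pkia (−0.26) was lower without HFpEF replicate 3 (unadjusted p 0.00747 in limma), and Pkig was at −0.23. Pde3b, the phosphodiesterase of insulin action in adipocytes, was the phosphodiesterase gene with the highest log2 fold change, at 1.76, with 0.515 to 0.871 FPKM in Chow and 1.94 to 2.82 FPKM in HFpEF. Of 14 phosphodiesterases tested, Pde1a (0.73) was also higher and Pde4c (−0.66) lower, while the abundant Pde3a (−0.11) and Pde4a (−0.21) overlapped between the groups. Beside Adrb3, Prkar2b and Pde3b stand the adipocyte markers, of which 6 of 10 tested were higher and 2 lower (median log2 fold change 5.04). Their median log2 ratio to the Chow mean was 5.82, 5.77 and 3.47 in HFpEF replicates 1, 2 and 3, and 5 of the 12 listed had no FPKM in any Chow library. Those of the 5 that were tested passed the filter only through the HFpEF libraries. The count of higher markers and the medians thus come partly from genes tested because they were high there. The summed FPKM of the adipocyte markers, mostly from the fatty acid handling genes Fabp4 and Lpl that other heart cells also express, was 525 to 563 in Chow and 329 to 525 in HFpEF. The part of adipocyte RNA in the 3 values was not tested.

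Among 13 A-kinase anchoring proteins, which tether PKA near its substrates, Akap13 (0.25) was higher and Akap1 (−0.65) and Pde4dip (−0.62) were lower, while Cmya5 (−0.40) and Akap5 (−0.73) did not pass the test. Of 8 CREB family genes and coactivators and 12 cAMP-responsive genes, 1 gene was higher at an unadjusted p under 0.05, and it belongs to both lists. This was Crem, the cAMP response element modulator (0.45), with 1.42 ± 0.098 FPKM in Chow and 1.99 ± 0.33 FPKM in HFpEF (SD, n = 3). It no longer passed without HFpEF replicate 3 (0.35, unadjusted p 0.0905 in limma), and no gene of either list was then higher or lower. With all libraries no gene of either list was lower. The immediate early gene Fos had the highest log2 fold change of the responsive genes (1.62), but its FPKM was 0.866, 7.37 and 1.76 in Chow and 5.46, 2.84 and 23.6 in HFpEF, which overlapped.

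**Figure D5:**
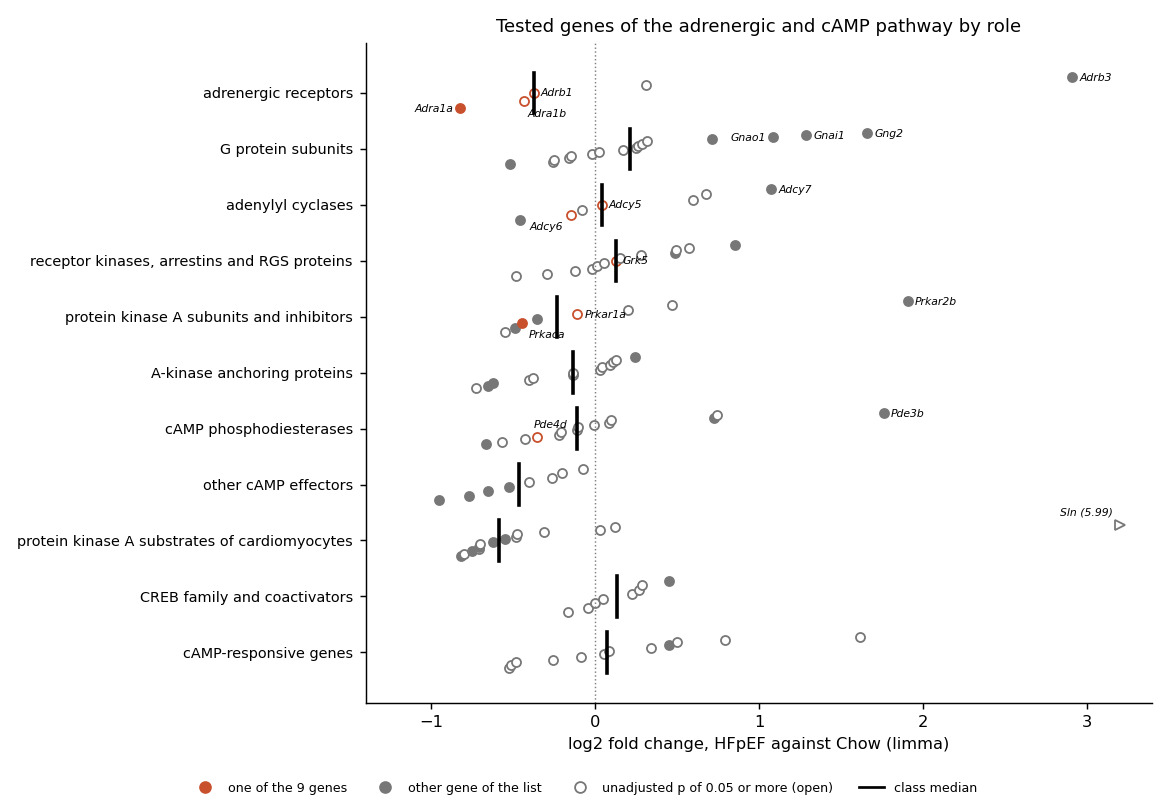
Log2 fold change (horizontal axis, HFpEF against Chow) of each tested gene of the pathway list by role, with the 9 genes in orange, open symbols for an unadjusted p of 0.05 or more and a black line at each class median. The medians of the PKA substrates (−0.59) and the other cAMP effectors (−0.46) are the lowest, Sln is drawn at the edge with its value, and the position of Adrb3 depends on the pseudocount because Chow held at most 1 read.

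The genes whose values were most like those of each member over the 6 libraries were found by Pearson's r on log2(FPKM + 0.1). Prkaca was most like Popdc2 (r = 0.999), which is itself a gene of the pathway list, and Ptpn3. Adra1b was most like Phyh and Idh3a, enzymes of peroxisomes and of the mitochondrial tricarboxylic acid cycle. Adrb1 was most like Tceanc and Surf2, Adra1a like Faap100 and Ripor1, and Pde4d like Slc38a3 and Nprl2. Adcy6 was most like Bves, a relative of Popdc2, and Frmd5, Adcy5 like Enah and Fam135a, Grk5 like Hmgn2 and Rpl24, and Prkar1a like Gm12279 and Cep83. With 6 libraries in 2 groups many genes reach such values, and these r of 0.98 to 1.00 describe likeness only.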

How the data were processed

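RNA from left ventricular myocardium of 3 Chow and 3 HFpEF mice, all distinct animals, was examined. The authors aligned reads with HISAT2 to GRCm38 (mm10, per the labels), counted them with featureCounts and deposited FPKM, with no annotation release given in the sources used here. FPKM multiplied by exon length (GENCODE release M21) gave whole reads for 96.1% to 96.2% of values above 0 at a relative tolerance of 1e-06. Then 889 genes, Adrb1 and Grk5 among them, were given another whole exon length, which left 37 genes without recovered reads. The reads that 1 step implies per library (11734336 to 19316914) differ from the reads recovered (13067023 to 16012784), so the deposited FPKM carry another scaling factor for each library.

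Libraries were rescaled by median-of-ratios factors (0.999 to 1.00), and log2(FPKM + 0.1) was fitted with limma 3.58.1 in R 4.3.3 (eBayes with trend and robust options) for genes that reached an FPKM of 0.5 in 3 or more libraries, with Benjamini-Hochberg adjustment over all tested genes. Intervals are at 95%. For single genes an exact permutation test (two-sided, smallest possible p 0.1) was also run. The fit was tested on simulated data. Figures and tables used Python 3.11.15, pandas 2.3.3, scipy 1.17.1 and matplotlib 3.10.9. Counting error is that of the recovered reads alone. Promoter sequences are from RefSeq.

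Named genes were the 9 members and, per role, the 2 most abundant genes, those with the lowest and highest log2 fold change and any with an adjusted p under 0.05, together with the 2 genes most like each member and abundant markers. Other genes named, such as those behind a count, were chosen after their values were seen. The members and lists were chosen with earlier results of these data known. Alternatives were other scalings (none, quantile, 15 ventricular cardiomyocyte markers), pseudocounts of 1 and 0.01, no filter or an FPKM minimum of 1, eBayes without its options, voom on recovered reads, the replicate number as a block and each library left out. Some genes of the lists are not reported here. Results for proteins and for other assays were not analysed here.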

Additional observations from a re-analysis of the deposited data

How the results depend on the processing

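Over 16 alternatives, 0 of the 9 members passed an adjusted p of 0.05 in limma, except in 1 fit. The fit of all libraries also gave 0, with 2 members at an unadjusted p under 0.05. Without HFpEF replicate 3, 2 members did pass (range 0 to 2 with 1 library left out), against 8.35% of all tested genes. These were Adra1a and Prkaca, whose log2 fold changes ran from −0.93 to −0.72 and from −0.54 to −0.26 with 1 library left out. Members lower at an unadjusted p under 0.05 numbered 2, and 1 to 4 with 1 library left out, 1 under quantile normalization and 0 under cardiomyocyte scaling, where 4 were higher. Genes past an adjusted p of 0.05 numbered 14, against 125 under cardiomyocyte scaling, 3 and 5 with pseudocounts of 1 and 0.01, 33 without trend and robust options, and 2 to 1188 with 1 library left out, the highest without HFpEF replicate 3. Voom on recovered reads gave 0, with 2 members lower at an unadjusted p under 0.05. Pathway genes higher and lower at an unadjusted p under 0.05 numbered 13 and 17, against 56 and 0 under cardiomyocyte scaling, and 8 to 14 and 8 to 27 with 1 library left out. Under cardiomyocyte scaling 51.4% of all tested genes were higher and 0.274% lower at that p, the shares to set beside these counts and those of the members. The same shares were 10.2% and 13.1% with all libraries, and 10.2% and 15.0% without HFpEF replicate 3. For the other alternatives these shares are not given here, so the counts in them cannot be read against all tested genes. With the replicate number as a block, 2 genes passed an adjusted p of 0.05 and 1 member was lower at an unadjusted p under 0.05. The samples share only a number, since same-numbered libraries did not deviate together (correlations −0.04, −0.07 and −0.06).

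Under cardiomyocyte scaling the log2 fold change turned to above 0 for Adrb1 (0.31), Adra1b (0.25), Adcy6 (0.53), Prkaca (0.24), Prkar1a (0.58), Pde4d (0.30), Gnai2 (0.66), Gng5 (0.16), Adcy9 (0.22), Rgs5 (0.39), Rgs2 (0.19), Pkia (0.13), Pde4dip (0.060), Cmya5 (0.28), Pde3a (0.57), Pde4a (0.47), Popdc2 (0.16), Rapgef3 (0.60), Atf1 (0.51), Dusp1 (0.60), Cited2 (0.16), Slc22a3 (0.45) and Maob (0.52). That scaling raises every HFpEF value relative to Chow by construction, the markers included. Quantile normalization turned Adcy6 (0.0099), Prkar1a (0.15), Gnai2 (0.21), Rgs5 (0.014), Tnni3 (0.054) and Dusp1 (0.11) to above 0, and voom turned Gnai2 (0.00040). With 1 library left out, values crossed 0 for Adcy5 (−0.18 to 0.23), Gnai2 (−0.12 to 0.067), Gnb2 (−0.069 to 0.083), Grk2 (−0.046 to 0.13), Pde4a (−0.42 to 0.18), Rapgef3 (−0.17 to 0.025), Crtc2 (−0.044 to 0.11), Dusp1 (−0.21 to 0.11), Slc22a3 (−0.38 to 0.034) and Maob (−0.34 to 0.16). The causes were not tested. Of 750 values of 47 named genes, 683 kept their direction and side of an adjusted p of 0.05. Depth limits Adrb3, at 0 to 1 reads per Chow library, more than any of the 9 members, at 344 reads or more.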

Other observations

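Genes of catecholamine supply and breakdown were listed beside the receptor pathway. Of 10 such genes 6 were tested, with 1 higher and 1 lower at an unadjusted p under 0.05 (background 10.2% and 13.1% of all tested genes) and 0 past an adjusted p of 0.05 in limma. Ddc, the gene of aromatic amino acid decarboxylase, was at 0.976, 0.976 and 0.964 FPKM in Chow and 0.356, 0.582 and 0.487 FPKM in HFpEF, with a log2 fold change of −0.92 and a limma adjusted p of 0.140. Its HFpEF libraries all lay below Chow, at 22 to 44 recovered reads against 51 to 62. Ddc reached the filter of 0.5 FPKM in the Chow libraries and in HFpEF replicate 2 only. It was thus tested because it was higher in Chow. Maoa, monoamine oxidase A, had a log2 fold change of 0.48, with 1.45 to 2.00 FPKM in Chow and 2.31 to 2.53 FPKM in HFpEF, while the more abundant Maob overlapped between the groups. Slc22a3, which encodes an extraneuronal monoamine transporter, was at 3.42, 3.16 and 2.88 FPKM in Chow and 3.48, 2.98 and 1.92 FPKM in HFpEF. The groups overlapped. Th, the gene of tyrosine hydroxylase, the rate-limiting enzyme of noradrenaline synthesis in sympathetic neurons, had no reads in any Chow library and 0, 8 and 1 reads in HFpEF. It did not pass the filter and was not tested. Among Schwann cell and neuron markers, 8 of 10 were tested, all 8 were above 0 (median log2 fold change 0.59) and 4 were higher at an unadjusted p under 0.05.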
